A study of Mus musculus with 16 samples.

Results

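The 38 genes described here make up the machinery of cell division, from the cyclins that open the cycle to the proteins that part the chromosomes. They were chosen by symbol, and all 38 were found among the 34821 gene names of an Agilent whole-genome mouse array. Of the 55681 non-control probes on the array, 53 carried these names, with 1 probe for 28 of the genes and several for the other 10. The arrays, read in 1 colour (Cy3), had been hybridised with total RNA from freshly removed whole brains of male mice, all given as C57BL/6J in the labels. There were 4 groups of 4 arrays, which the design text calls biological replicates: old (18 months) mice deficient in Slc5a8, young (4 months) deficient mice, old wild-type mice and young wild-type mice. Slc5a8 carries lactate, ketone bodies and other monocarboxylates into cells together with sodium. The labels do not say how the deficiency was made.

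A cell that commits to division makes D-type and E-type cyclins, which release the E2F transcription factors from the retinoblastoma protein and start the S phase programme. The MCM helicase and its partners then copy the DNA, cyclins A and B drive the cell through G2 into mitosis, and the anaphase-promoting complex (APC/C) ends mitosis by marking cyclin B and securin for destruction. Most neurons of the adult brain have left the cycle for good. Division goes on mainly in oligodendrocyte precursors, in the stem cells and neuroblasts of the ventricular wall and the dentate gyrus, and in microglia, so transcripts of mitosis are scarce in whole-brain RNA.

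Levels below are log2 processed intensities relative to the array's 75th percentile. Differences are log2 differences ± SE from a limma fit of the 4 groups to all 16 arrays (n = 4 arrays each). A gene was called higher or lower, or said to have risen or fallen, when its p-value, adjusted by Benjamini and Hochberg over the 23032 genes tested, was under 0.05. Of the 38 genes, 32 had a probe that passed the filter on dim probes, that is, 1 that the scanner software marked as well above background throughout 1 group or more. These 32 were tested, and 27 of them passed that mark on all 16 arrays. The 6 genes that did not pass were Ccne2, Cdk1, Aurkb, Bub1, Top2a and Kif11, whose brightest probes were well above background on 0, 1, 0, 2, 1 and 5 of the 16 arrays. No member spot was saturated.

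On an array, 58.4% to 66.08% of the spots stood well above background, and the 75th percentile ran from 625.7 to 1348 units of processed intensity. Array 1 of the young deficient group stood apart, at 97.2 on a first principal component that held 29.5% of the variance. The neuronal Snap25 and Rbfox3 and the astrocytic Gfap were bright on all 16 arrays. The probe of Slc5a8 never stood well above background, with levels of -7.9 to -6.34, so it checks nothing about the genotype labels. Each genotype filled 1 slide and 1 scan session, so a genotype difference cannot be told apart from a slide difference. On the slides, old deficient and young wild-type arrays lay in row 2, and young deficient and old wild-type arrays in row 1. An age difference within a genotype is therefore also a row difference, while the age difference averaged over both genotypes is balanced over slides and rows.

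The proliferation genes called in the age comparison, all of S phase to mitosis, were lower in old brains. In the average of both genotypes, old minus young, 5 of the 32 genes fell and 0 rose: Tk1, Mki67, Ube2c, Ccna2 and Ccnb1. Among all genes tested, 0.92% fell, 0.69% rose and 1.61% were called in either direction. Of the 32 differences 26 were negative, against 52.5% of all genes, and their median was -0.20, against -0.011 over all genes. At an unadjusted p under 0.05, 15 of the 32 were lower and 0 higher, where 7.72% of all genes were lower and 7.07% higher. These counts include Ccnb1 and Nusap1, which passed the filter on dim probes only through young groups. Of the 27 genes well above background on all 16 arrays, 3 fell (Tk1, Mki67 and Ccna2) and 0 rose. Among these 27, 21 differences were negative, and 12 were lower and 0 higher at an unadjusted p under 0.05. In whole-brain RNA, fewer dividing cells and less of a transcript per dividing cell cannot be told apart.

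Tk1 (thymidine kinase, which salvages thymidine for DNA synthesis in S phase) had the smallest p of the 32 genes and ranked 17 of the 23032. Its levels were -4.69, -5.25, -5.09 and -5.00 in old deficient brains, against -3.86, -4.12, -3.76 and -3.82 in young deficient brains. In wild-type brains they were -4.73, -4.93, -4.82 and -4.50 in the old, against -4.11, -3.82, -4.17 and -3.99 in the young. Every old array lay below every young array, in either genotype. The averaged difference was -0.92 ± 0.09 (adjusted p = 0.000109), 1.89-fold lower in old brains. Its probe lies on chromosome 11 from 117676845 to 117676904 (NCBI37/mm9, minus strand), at position 1297 of the transcript.

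Mki67 encodes Ki-67, which coats mitotic chromosomes and is the usual marker of cycling cells. Its levels were -3.78, -4.03, -4.04 and -4.06 in old deficient brains, against -2.80, -2.87, -3.06 and -2.88 in young deficient brains. In wild-type brains they were -3.46, -3.91, -3.24 and -4.34 in the old, against -3.07, -2.87, -2.95 and -2.91 in the young. The groups did not overlap by age in either genotype, but the old wild-type arrays were spread over a wider range than the other 3 groups. The averaged difference was -0.93 ± 0.13 (adjusted p = 0.00131), or 1.91-fold lower in old brains. A second Mki67 probe, above background throughout, gave -0.90 ± 0.17 (adjusted p = 0.0152 over all kept probes). The probes lie on chromosome 7 at 142881591 to 142881650 and at 142884764 to 142884823 (NCBI37/mm9, minus strand).

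Ube2c is the ubiquitin-conjugating enzyme that works with the APC/C. Its levels were -4.52, -4.86, -5.71 and -4.92 in old deficient brains, against -2.94, -3.77, -3.62 and -3.63 in young deficient brains. In wild-type brains they were -4.36, -4.63, -4.29 and -4.83 in the old, against -3.81, -3.74, -3.70 and -3.49 in the young. Again no old array reached the level of a young array of its genotype. The averaged difference was -1.18 ± 0.16 (adjusted p = 0.00139), 2.26-fold lower in old brains. Its second probe gave -1.11 ± 0.12 (adjusted p = 0.000133 over all kept probes). The probes lie on chromosome 2 at 164598016 to 164598075 and at 164597496 to 164597555 (plus strand).

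Ccna2 (cyclin A2, the partner of Cdk2 in S phase and of Cdk1 in G2) moved less but evenly. It had -3.40, -3.35, -3.64 and -3.41 in old deficient brains, against -3.05, -2.83, -2.80 and -3.08 in young deficient brains. It had -3.40, -3.48, -3.35 and -3.41 in old wild-type brains, against -3.12, -2.65, -2.74 and -2.93 in young wild-type brains. The ages did not overlap in either genotype, and the averaged difference was -0.53 ± 0.08 (adjusted p = 0.00276).

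Ccnb1 (cyclin B1, which with Cdk1 triggers entry into mitosis) was near the limit of detection in old brains, where it was well above background on 2 of 4 arrays in each genotype. It passed the filter on dim probes only through the young groups, so its call is not independent of that filter. Its levels were -5.08, -5.79, -5.59 and -5.82 in old deficient brains, against -4.39, -4.13, -4.26 and -4.33 in young deficient brains. In wild-type brains they were -5.63, -6.01, -4.83 and -5.93 in the old, against -4.79, -4.08, -4.77 and -4.83 in the young. Array 3 of the old wild type, at -4.83, reached the level of the dimmest young wild-type arrays. The averaged difference was -1.14 ± 0.17 (adjusted p = 0.00308). The 3 genes Tk1, Mki67 and Ccna2 kept their call under all 25 alternative settings, while Ube2c and Ccnb1 lost it after normexp background correction (adjusted p = 0.0732 and 0.115). The size of the difference depended on the background correction. After normexp it was -0.39 for Tk1, -0.56 for Mki67, -0.34 for Ccna2, -0.46 for Ube2c and -0.35 for Ccnb1. With the deposited table it was -0.51 for Tk1, -0.70 for Mki67, -0.41 for Ccna2, -0.62 for Ube2c and -0.50 for Ccnb1.

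Top2a, the topoisomerase that untangles sister chromatids and a second common marker of cycling cells, was not tested, since its probe was well above background on 1 of the 16 arrays. It read -7.79, -7.73, -7.72 and -7.89 in old deficient brains, against -6.06, -5.95, -6.13 and -6.37 in young deficient brains. It read -7.78, -6.43, -7.49 and -7.74 in old wild-type brains, against -6.33, -6.12, -6.21 and -5.05 in young wild-type brains. The values run the same way as those of Mki67, but with both ages below background no fold is given. Without the filter on dim probes Top2a was tested, and called lower in the averaged age contrast.

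**Figure D1:**
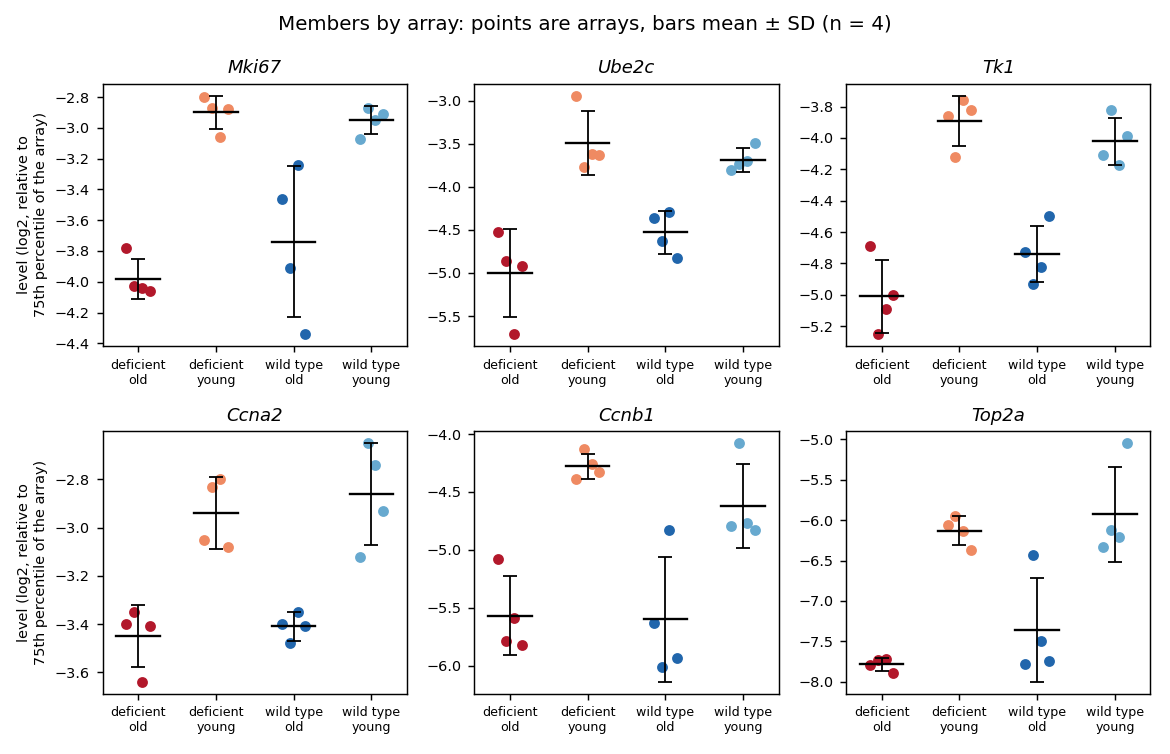
Levels of 6 proliferation genes on each of the 16 arrays, as log2 intensity relative to the array's 75th percentile. Points are arrays and bars the mean ± SD of 4 arrays, with old left of young within each genotype. For Tk1, Mki67, Ube2c and Ccna2 every old array lies below every young array of its genotype, and Top2a was well above background on only 1 of the 16 arrays.

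Many genes of G2 and mitosis carry, close to their start, a CHR element that the MuvB complexes bind and CCAAT boxes bound by NF-Y, while S phase genes carry E2F sites. Windows that begin 250 bases before the gene start and run past it into the gene were searched on both strands for 3 motifs. They were taken from RefSeq sequences of GRCm38.p6 that hold 31 of the 38 genes. Of a window, only the 250 bases before the start are printed below. The letters TTTGAA were counted as CHR, and so were the letters TTCGAA. The CCAAT box was searched by its name, and as E2F sites the letters TTTCCCGC were searched and also the letters TTTGGCGC. CHR was found in 16 of the 31 windows (51.6%), against 19.2% of 32851 windows of the same length, CCAAT in 24 (77.4%), against 37.4%, and E2F in 4 (12.9%), against 1.56%. Of the 4 genes that fell with age and have a window, 2 held CHR and 3 held CCAAT. Of the 23 other tested genes with a window, 10 held CHR and 17 held CCAAT. Ube2c, Mki67 and Ccnb1 are shown because their windows differ in make-up although all 3 fell. Capitals mark CHR and CCAAT on either strand, so they also hold the reverse complements. In Ube2c (chr2:164769679-164769928, plus strand) 1 CHR stands 29 bases before the start and 2 of 6 CCAAT matches overlap each other. In Mki67 (chr7:135716380-135716629, minus strand) 2 CHR matches stand 116 and 98 bases before the start, with 3 CCAAT matches, and Ccnb1 (chr13:100786487-100786736, minus strand) holds 2 CCAAT matches and no CHR.
Ube2c: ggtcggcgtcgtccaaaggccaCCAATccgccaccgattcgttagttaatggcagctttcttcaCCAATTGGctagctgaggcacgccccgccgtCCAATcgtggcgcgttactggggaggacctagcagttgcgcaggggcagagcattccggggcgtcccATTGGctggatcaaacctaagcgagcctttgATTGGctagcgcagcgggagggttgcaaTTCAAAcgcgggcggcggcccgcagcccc
Mki67: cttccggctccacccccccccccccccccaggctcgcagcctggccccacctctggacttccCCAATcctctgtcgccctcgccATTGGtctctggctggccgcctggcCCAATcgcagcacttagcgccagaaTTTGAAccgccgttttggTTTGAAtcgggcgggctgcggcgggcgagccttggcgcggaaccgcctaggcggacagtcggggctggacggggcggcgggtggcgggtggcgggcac
Ccnb1: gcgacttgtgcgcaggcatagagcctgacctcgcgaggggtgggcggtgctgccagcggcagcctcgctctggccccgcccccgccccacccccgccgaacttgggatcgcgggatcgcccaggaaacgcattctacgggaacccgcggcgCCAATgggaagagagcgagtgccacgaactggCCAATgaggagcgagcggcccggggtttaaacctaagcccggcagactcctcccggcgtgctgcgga
The window of Tk1 held no match. A match is a run of letters and not a measured binding site.

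By role, the genes called in the averaged age contrast lay in the groups of nucleotide supply, cyclins and kinases, checkpoint and spindle, and none lay among the G1 or replication genes. Of the 5 cyclins and kinases of S phase to mitosis that were tested, 5 had a negative averaged age difference and 2 were called, with a median of -0.30. Besides Ccna2 and Ccnb1 these are cyclin B2 (Ccnb2, -0.27 ± 0.08, adjusted p = 0.106), the mitotic kinase Plk1 (-0.30 ± 0.11, adjusted p = 0.204) and Aurka, the kinase of the spindle poles (-0.22 ± 0.07, adjusted p = 0.164). Cdk1, the kinase of mitotic entry, read -7.47 ± 0.79 in old deficient, -6.46 ± 0.85 in young deficient, -7.18 ± 0.60 in old wild-type and -7.13 ± 0.52 in young wild-type brains (SD, n = 4 each), all near background. Aurkb, the kinase of the chromosomal passenger complex, stayed at background throughout.

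All 6 chromosome and spindle genes tested had negative averaged age differences, with a median of -0.41, and Mki67 was the 1 called. Cdca8, the borealin subunit of the chromosomal passenger complex, stood at -0.36 ± 0.09 (adjusted p = 0.0528) and the cytokinesis motor Kif20a at -0.46 ± 0.12 (adjusted p = 0.0641), just short of the threshold. Birc5 (survivin, of the same complex as Cdca8) stood at -0.30 ± 0.10 (adjusted p = 0.146) and the centromeric histone Cenpa at -0.11 ± 0.11. Nusap1, a microtubule binder of the spindle, had a large but uncertain difference of -0.96 ± 0.31 (adjusted p = 0.147), since its young deficient arrays ran from -5.17 to -2.65. Nusap1 passed the filter on dim probes only through the young deficient group, in which it was highest. Its age difference is therefore not independent of that filter.

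In the checkpoint and APC/C group 5 of 5 tested differences were negative, with a median of -0.31, and Ube2c was called. The APC/C activator Cdc20 stood at -0.31 ± 0.13 (adjusted p = 0.276) and Cdca3, a trigger of mitotic entry, at -0.80 ± 0.24 (adjusted p = 0.125). The spindle checkpoint genes Bub1b (-0.05 ± 0.32) and Mad2l1 (-0.03 ± 0.12) lay close to 0. Of the nucleotide supply genes 4 of 4 were negative, but beside Tk1 the values were small: -0.27 ± 0.13 for the ribonucleotide reductase subunit Rrm2, -0.20 ± 0.10 for thymidylate synthase (Tyms) and -0.04 ± 0.06 for Rrm1.

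No replication gene was called in the averaged age contrast. Of 8 tested, 5 differences were negative and 0 were called, with a median of -0.09. Pcna, the sliding clamp of DNA polymerase, averaged 3.09 ± 0.03 in old deficient, 2.94 ± 0.35 in young deficient, 3.03 ± 0.32 in old wild-type and 3.01 ± 0.25 in young wild-type brains (SD, n = 4 each). The helicase subunit Mcm2 averaged -1.95 ± 0.14, -1.86 ± 0.32, -2.05 ± 0.20 and -2.09 ± 0.09 in the same order of groups. The averaged age differences of Pcna (0.09 ± 0.13) and Mcm2 (-0.02 ± 0.10) were within 1 SE of 0, and those of Mcm4, Mcm5, Mcm6 and Mcm7 ran from -0.18 to 0.10. Mcm3 had the smallest p of the 8 (-0.20 ± 0.07, adjusted p = 0.177), and Clspn stood at -0.18 ± 0.14 (adjusted p = 0.571). The G1 cyclins and E2f1 had 1 negative and 3 positive differences, with a median of 0.04 and none called. Ccnd2 (cyclin D2) averaged 2.13 ± 0.09 in old deficient, 2.08 ± 0.20 in young deficient, 2.08 ± 0.12 in old wild-type and 2.18 ± 0.13 in young wild-type brains.

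**Figure D2:**
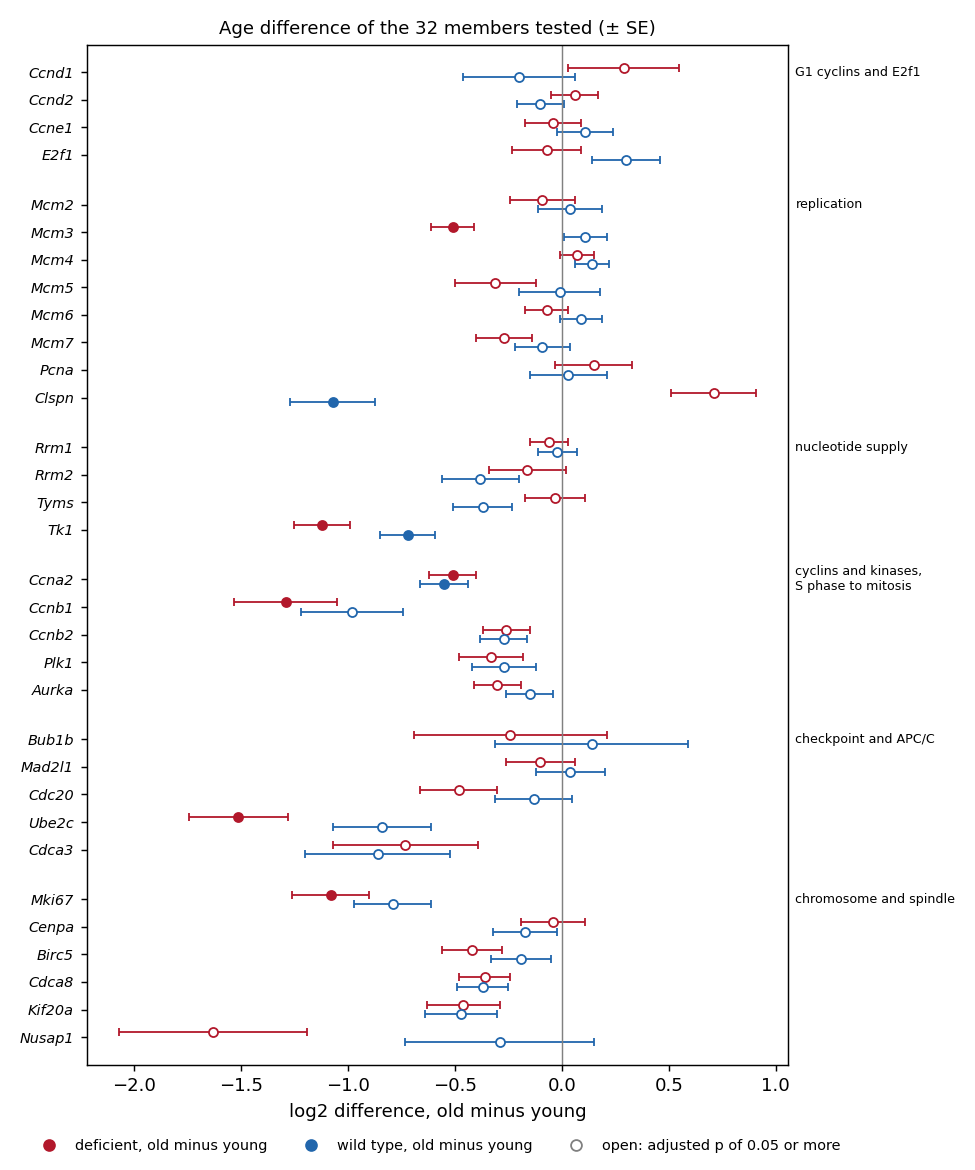
Age difference (old minus young, log2 ± SE, n = 4 arrays per group) of the 32 genes tested, in deficient (red) and wild-type (blue) brains, ordered by role. Filled points had an adjusted p under 0.05. Genes from Tk1 down the page lie mostly left of 0 in both genotypes, while G1 cyclins, E2f1 and the MCM genes lie around 0, apart from Mcm3 in deficient brains.

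Taken genotype by genotype, 6 of the 32 genes fell with age in deficient brains and 0 rose, where 1.12% of all genes fell, 1.26% rose and 2.39% were called in either direction. Of the 32 differences 27 were negative, against 51.8% of all genes. The genes that fell were Tk1 (-1.12 ± 0.13, adjusted p = 0.0014), Ube2c (-1.51 ± 0.23, adjusted p = 0.00447), Mki67 (-1.08 ± 0.18, adjusted p = 0.00766), Ccnb1 (-1.29 ± 0.24, adjusted p = 0.0142), Mcm3 (-0.51 ± 0.10, adjusted p = 0.0143) and Ccna2 (-0.51 ± 0.11, adjusted p = 0.0303). In wild-type brains 3 fell and 0 rose, where 0.252% of all genes fell, 0.169% rose and 0.421% were called. Here 23 differences were negative, against 49.7% of all genes. The genes that fell were Tk1 (-0.72 ± 0.13, adjusted p = 0.0246), Clspn (-1.07 ± 0.20, adjusted p = 0.0292) and Ccna2 (-0.55 ± 0.11, adjusted p = 0.0477). Mki67 at -0.79 ± 0.18 (adjusted p = 0.0865), Ube2c at -0.84 ± 0.23 (adjusted p = 0.208) and Ccnb1 at -0.98 ± 0.24 (adjusted p = 0.135) did not pass in wild-type brains. For these 3 genes the test of the difference between the age differences of the genotypes did not pass either (adjusted p = 0.683 for Mki67, 0.477 for Ube2c and 0.752 for Ccnb1). Of the 27 genes well above background on all 16 arrays, 4 fell in deficient and 2 in wild-type brains, and 0 rose in either.

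By the arrays alone, 9 of the 32 genes had every old deficient array below every young deficient array (10.2% of all genes did) and 6 had this in wild-type brains (2.17% of all genes). Tk1, Ccna2, Ube2c and Mki67 had it in both genotypes, 4 of 32 genes where 0.43% of all genes did. Of the 27 genes well above background on all 16 arrays, 7 had it in deficient brains, 4 in wild-type brains and 3 in both. Taking on each array the median over the 32 genes of the level minus the gene's mean over 16 arrays, the old deficient arrays lay between -0.19 and -0.07 and the young deficient arrays between 0.09 and 0.20. The old wild-type arrays lay between -0.22 and -0.07 and the young wild-type arrays between -0.03 and 0.14. The wild-type calls depended on the settings: the count was 0 with normexp, with quantile normalization and with the deposited value table. It was also 0 without old array 1 or 2, or without young array 2 or 4, of the wild type. Without old wild-type array 3, Mki67 passed in wild-type brains (adjusted p = 0.0152). In deficient brains the count was 3 without old array 2 or 4, where Ccnb1 (adjusted p = 0.057 and 0.0504), Mcm3 and Ccna2 were lost, and 7 without young array 1 or 4. The call of Ccna2 was lost under 11 of 26 alternatives in deficient brains and under 22 of 26 in wild-type brains. In deficient brains these included leaving out any single old deficient array, or young deficient array 2 or 3.

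Mcm3, a subunit of the MCM helicase, was called in deficient brains and not in wild-type brains. Its levels were -1.15, -1.18, -1.10 and -1.33 in old deficient brains, against -0.46, -0.61, -0.83 and -0.81 in young deficient brains. In wild-type brains it had -0.72, -0.84, -0.82 and -0.83 in the old, against -0.98, -0.95, -0.76 and -0.97 in the young. The 2 ages did not overlap in deficient brains and did in wild-type brains, where the old were slightly higher. The 2 row 2 groups were thus the 2 lower groups, and the test of the difference between the genotypes' age differences gave -0.62 ± 0.14 (adjusted p = 0.114). The call in deficient brains was lost without old deficient array 2 (adjusted p = 0.052) or 4 (adjusted p = 0.0531).

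Mcm3 is read by 2 kept probes that overlap by 43 bases on chromosome 1 and differ at a single base of the overlap. The stretch around it, chr1:20793149-20793178 (NCBI37/mm9, minus strand), is shown because both probes report the same site, with the base that differs in capitals. The difference is A14G, counted from 1 at the 5′ end of the stretch, with the probe used for the values above first.
Mcm3 probe used: aagctttctttgcAattagactagtatgta
Mcm3 second probe: aagctttctttgcGattagactagtatgta
The second probe was dimmer, with means of -1.96 in old deficient and -1.60 in young deficient brains, and -1.67 in old wild-type and -1.77 in young wild-type brains. Its age difference in deficient brains was -0.35 ± 0.12 (adjusted p = 0.128 over all kept probes), against -0.51 ± 0.10 (adjusted p = 0.0177) for the first probe in the same fit.

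Clspn (claspin, an adaptor of the replication checkpoint kinase Chk1) had a pattern of its own and was read close to background. Its levels were -5.29, -5.20, -5.54 and -5.32 in old deficient brains, against -6.36, -6.37, -5.96 and -6.90 in old wild-type brains. In young mice they were -6.45, -5.80, -5.65 and -6.31 in deficient brains, against -5.22, -5.06, -5.58 and -5.45 in wild-type brains. It was well above background on 4 of 4 old deficient, 0 of 4 old wild-type, 1 of 4 young deficient and 4 of 4 young wild-type arrays. It thus passed the filter on dim probes only through the groups in which it was high, and its calls are not independent of that filter. On the levels used here, Clspn was at least 1.58-fold higher in deficient than in wild-type brains at 18 months (adjusted p = 0.0154). It was at least 1.60-fold lower in old than in young wild-type brains. For these bounds the dim group was given, on each array, either its own level or that of the dimmest probe still well above background, whichever was higher.

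The difference between its age differences, deficient minus wild type, was 1.78 ± 0.29 (adjusted p = 0.0173), the 1 call among the 32 genes in that contrast, where 0.187% of all genes were called and 0.122% were higher. The 2 groups in which Clspn was well above background on every array are the 2 groups in slide row 2, so its pattern cannot be told apart from a difference between the rows. After normexp background correction the old genotype difference was 0.22 (adjusted p = 0.893) and the contrast of age differences 0.35 (adjusted p = 0.684). Without old deficient array 2 both calls were lost (adjusted p = 0.0607 and 0.0532), and without young wild-type array 1 the contrast was lost (adjusted p = 0.0557). Next by p-value in the contrast came Mcm3, Nusap1 (-1.33 ± 0.62, adjusted p = 0.469) and Ube2c (-0.67 ± 0.32, adjusted p = 0.477). The value of Nusap1 is not independent of the filter on dim probes, which it passed only through the young deficient group.

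By genotype 1 or 2 of the 32 genes were called per contrast, little more than the shares of all genes given below. In the average of both ages, cyclin D1 was lower and Cenpa higher in deficient brains. These differences cannot be told apart from a difference between the 2 slides. At 4 months 1 of the 32 was called, lower, where 0.86% of all genes were lower and 1.53% called in either direction. At 18 months 1 was called, Clspn, higher, where 0.912% were higher and 1.47% called. In the average of both ages 1 was lower and 1 higher, where 1.53% of all genes were lower, 1.65% higher and 3.19% called in either direction. The medians over the 32 genes were 0.04 at 4 months, -0.03 at 18 months and 0.00 in the average, against 0.022, 0.006 and 0.018 over all genes.

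Ccnd1 (cyclin D1, the cyclin of the G1 restriction point) was lower in deficient brains. It had 0.54, 1.02, 0.89 and 1.72 in young deficient brains, against 2.09, 2.33, 2.15 and 2.16 in young wild-type brains. In old mice it had 0.85, 2.03, 0.80 and 1.67 in deficient brains, against 2.16, 1.92, 1.89 and 1.94 in wild-type brains. The young groups did not overlap, whereas array 2 of the old deficient group lay among the wild type. The deficient arrays varied far more than the wild-type arrays, with an SD of 0.50 against 0.10 at 4 months and of 0.61 against 0.12 at 18 months. The difference was -1.14 ± 0.26 at 4 months (adjusted p = 0.0443, 2.20-fold lower), -0.64 ± 0.26 at 18 months (adjusted p = 0.383) and -0.89 ± 0.19 in the average (adjusted p = 0.0154). The young call was lost under 16 of 26 alternatives, with differences of -1.36 to -0.97 over all of them. Among these were leaving out young deficient array 1, 2 or 3, old deficient array 4, or any single wild-type array. The averaged call was lost under 1 of 25, that without the 3 arrays farthest out on the first principal component (adjusted p = 0.0525). Its single probe lies on chromosome 7 from 152116202 to 152116261 (NCBI37/mm9, minus strand), at position 3370 of the transcript.

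Cenpa, the histone H3 variant that marks centromeres, was higher in deficient brains. It had -2.96, -3.01, -2.90 and -2.86 in old deficient brains, against -3.90, -3.48, -3.14 and -3.19 in old wild-type brains. In young mice it had -3.02, -2.68, -2.88 and -2.97 in deficient brains, against -3.19, -3.02, -3.52 and -3.28 in wild-type brains. The old groups did not overlap and the young groups met at -3.02. The averaged difference was 0.43 ± 0.11 (adjusted p = 0.0418), with 0.50 ± 0.15 at 18 months (adjusted p = 0.162) and 0.37 ± 0.15 at 4 months (adjusted p = 0.233). The call was lost under 17 of 25 alternatives, and over all 25 the difference ran from 0.28 to 0.48. Among these were leaving out any single old deficient array, young deficient array 2, 3 or 4, old wild-type array 1 or 2, or young wild-type array 1, 3 or 4.

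**Figure D3:**
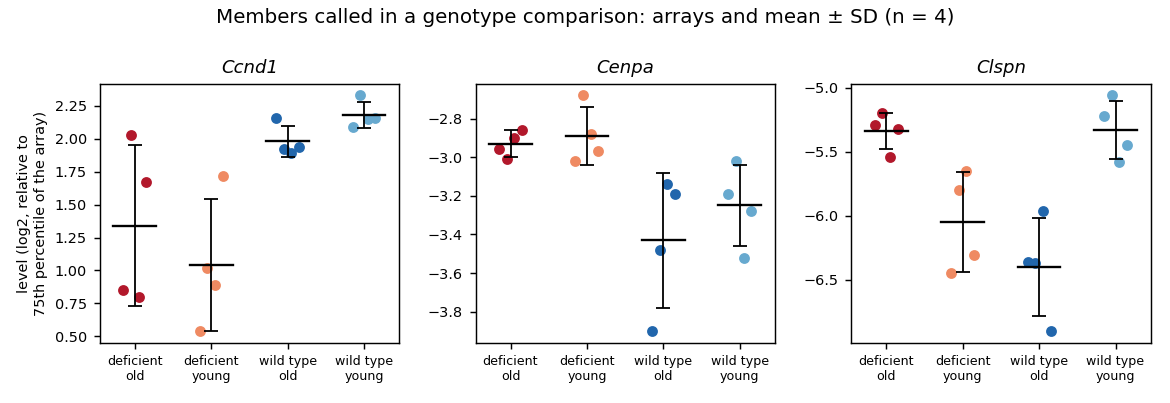
Levels of the 3 genes called in a genotype comparison on each of the 16 arrays, as log2 intensity relative to the array's 75th percentile, with the mean ± SD of 4 arrays. Deficient groups (red, orange) stand left of wild-type groups (blue). Ccnd1 is lower and more spread in deficient brains, Cenpa is higher in them, and Clspn is high in old deficient and young wild-type brains.

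The other genes with the smallest p-values did not pass. At 4 months these were Clspn (-0.73 ± 0.20, adjusted p = 0.0875), Cdc20 (0.55 ± 0.18, adjusted p = 0.134) and Mcm6, another helicase subunit (0.26 ± 0.10, adjusted p = 0.203). At 18 months they were Mcm3 (-0.38 ± 0.10, adjusted p = 0.0702), Cenpa and Bub1b (-1.12 ± 0.45, adjusted p = 0.375). In the average they were Cdc20 (0.37 ± 0.13, adjusted p = 0.147) and Bub1b (-0.93 ± 0.32, adjusted p = 0.15). Bub1b passed the filter on dim probes only through the wild-type groups, in which it was higher. Its genotype differences are therefore not independent of that filter. The genes that fell with age gave no genotype call: the averaged genotype differences were -0.07 ± 0.09 for Tk1, -0.10 ± 0.13 for Mki67, -0.14 ± 0.16 for Ube2c, -0.06 ± 0.08 for Ccna2 and 0.18 ± 0.17 for Ccnb1. Tyms averaged -4.35 ± 0.25 in the old deficient group against -4.42 ± 0.14 in the old wild type, and -4.32 ± 0.23 in the young deficient group against -4.05 ± 0.14 in the young wild type (SD, n = 4 each), with no call.

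Markers of several cell types differed by genotype as well. In the average of both ages 2 of 9 precursor markers were lower in deficient brains, Gpr17 (-0.49 ± 0.09, adjusted p = 0.00627) and Neu4 (-0.49 ± 0.11, adjusted p = 0.0193). Of 12 microglial markers 11 were negative and 3 lower, Trem2 (-0.46 ± 0.08, adjusted p = 0.00539), Sall1 (-0.30 ± 0.07, adjusted p = 0.0286) and Fcrls (-0.61 ± 0.16, adjusted p = 0.0482). Of 4 olfactory markers tested 2 were also lower, Omp (-1.55 ± 0.39, adjusted p = 0.0437) and Stoml3 (-0.96 ± 0.21, adjusted p = 0.0178). The others were not called, Cnga2 at -0.07 ± 0.08 and Gng13 at 0.24 ± 0.15. Of 5 ependymal markers 5 were negative, with a median of -0.26, and 1 was lower, Ccdc153 (-1.72 ± 0.22, adjusted p = 0.000312). In that average 1.53% of all genes were lower, and 10387 of the 23032 had a negative difference. Choroid plexus markers were negative there in 7 of 7 (median -0.48), neuroblast markers in 10 of 13 and pituitary markers in 5 of 6. Lymphocyte markers were positive in 4 of 5, and none of these 4 lists held a call. At 18 months 3 of 5 red cell markers were lower in deficient brains, with a median of -1.99 over the 5. Of all 23032 genes 128 were lower at that age. The part of these cell types in the genotype calls was not tested.

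**Figure D4:**
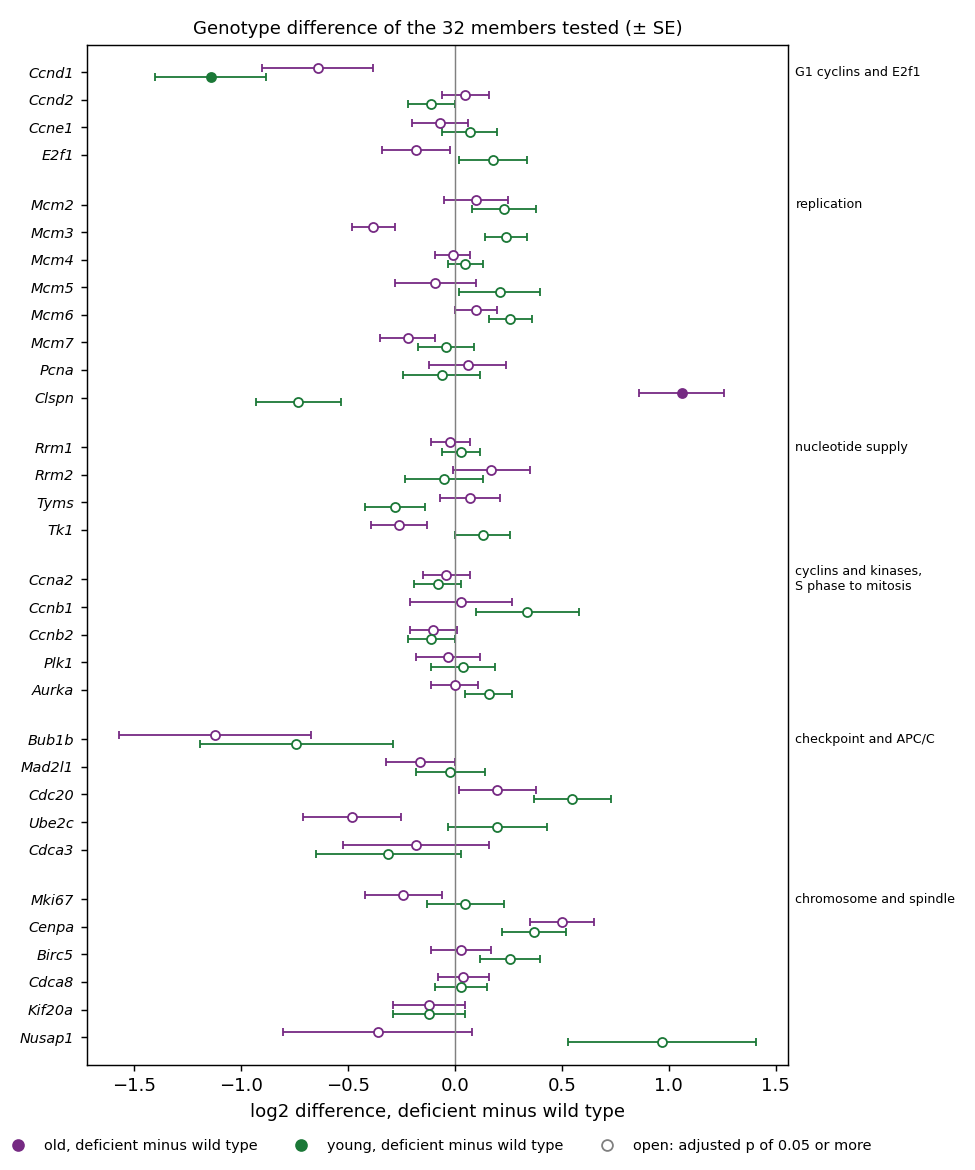
Genotype difference (deficient minus wild type, log2 ± SE, n = 4 arrays per group) of the 32 genes tested, at 18 months (purple) and 4 months (green), ordered by role. Filled points, which had an adjusted p under 0.05, are Ccnd1 at 4 months and Clspn at 18 months, and most other genes lie within 0.5 of 0.

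Few genes of the same pathways outside the 38 were called, and no test compared them with the 38. Of 25 other S phase genes 20 were tested, and in the averaged age contrast 1 fell and 0 rose, with a median of -0.02. Of their differences 14 were negative and 6 positive, and 2 were lower and 0 higher at an unadjusted p under 0.05 (limma). The gene that fell was Mcm10, a replication initiation factor (-0.41 ± 0.09, adjusted p = 0.0324), followed by the methylation maintenance factor Uhrf1 (-0.52 ± 0.14, adjusted p = 0.0877). Of 42 other G2 and M genes 31 were tested, 1 fell and 1 rose, with a median of -0.08. Here 17 differences were negative and 14 positive, where 52.5% of all genes were negative. At an unadjusted p under 0.05, 6 of the 31 were lower and 1 higher, where 7.72% of all genes were lower and 7.07% higher. Prc1, which bundles microtubules of the central spindle, fell by 0.71 ± 0.11 (adjusted p = 0.00308) and was called in each genotype. Anln (anillin, a scaffold of the cytokinetic ring) rose by 0.58 ± 0.14 (adjusted p = 0.0473). Of 22 G1 control genes 21 were tested and 0 were called by limma in any age contrast. At an unadjusted p under 0.05, 4 of them were lower and 0 higher in the averaged age contrast. By genotype, the transcription factor E2f2 was higher in deficient brains, by 0.93 ± 0.13 in the average (adjusted p = 6e-04) and 1.12 ± 0.18 at 18 months (adjusted p = 0.00396). The chromosomal kinesin Kif22 was lower in deficient brains at 18 months (-0.52 ± 0.10, adjusted p = 0.0117).

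Among markers of the cell types that divide in adult brain, few were called by age. The summed linear level of 9 oligodendrocyte precursor markers, in units of the array's 75th percentile, ran from 18.1 to 24.1 in old deficient and from 26.9 to 33.3 in young deficient brains. It ran from 25 to 29.4 in old wild-type and from 33.3 to 36.9 in young wild-type brains. Gpr17 carried much of this sum, and without it the other 8 summed to 13 to 17.1 in old deficient and 16 to 21.4 in young deficient brains, and to 15.5 to 19 in old wild-type and 16.8 to 20 in young wild-type brains. The ages then overlapped in both genotypes. In the averaged age contrast 1 of the 9 fell, Gpr17, which marks precursors about to differentiate (-0.89 ± 0.09, adjusted p = 6.96e-05), while Pdgfra and Cspg4, the defining surface markers, had means between -0.29 and 0.56 in all 4 groups. The median difference of the 9 was -0.16. The sum over 13 neuroblast markers ran from 8.84 to 10.4 in old deficient and from 11.1 to 12 in young deficient brains, and from 9.56 to 10.9 in old wild-type and from 11.8 to 12.3 in young wild-type brains. Their differences were negative in 7 and positive in 6, with a median of -0.03. Of these, Sox4 fell (-0.43 ± 0.06, adjusted p = 0.00245), and Dlx5 stood at 0.45 ± 0.11 (adjusted p = 0.0584) and rose in deficient brains (0.72 ± 0.16, adjusted p = 0.0324). Dcx, the defining marker, averaged -0.63 in old deficient, -0.56 in young deficient, -0.36 in old wild-type and -0.38 in young wild-type brains. Of the 12 microglial markers 0 were called in the averaged age contrast by limma, with 5 higher and 0 lower at an unadjusted p under 0.05. The part of these cell types in the fall of the proliferation genes was not tested.

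Tissue that borders the brain differed between arrays as well. All 6 pituitary markers tested had negative averaged age differences, with a median of -3.08, and 1 was called (Cga, -4.84 ± 1.09, adjusted p = 0.0362). Their median level, relative to each gene's mean, ran from -2.48 to 1.33 in old deficient, from -0.10 to 3.24 in young deficient, from -2.47 to -0.45 in old wild-type and from -0.48 to 5.26 in young wild-type brains. Red cell markers were lower in old than in young deficient brains (4 of 5 called, median -2.25) and did not differ detectably by age in wild-type brains (0 of 5 called by limma, 0 at an unadjusted p under 0.05, median -0.28). Of 4 olfactory markers tested 4 were negative in the averaged age contrast, with a median of -0.29. Omp was the 1 called, and fell by 2.48 ± 0.39 (adjusted p = 0.00436). Choroid plexus markers were negative in 7 of 7 (median -0.50) and ependymal markers in 5 of 5 (median -0.19), with 0 called in either list. At an unadjusted p under 0.05 (limma), 5 of 7 choroid plexus, 5 of 6 pituitary and 0 of 5 ependymal markers were lower and 0 higher. Of all genes 7.72% were lower at that threshold. Lymphocyte markers gave 0 calls among 5. The part of these tissues in the age differences of the proliferation genes was not tested.

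**Figure D5:**
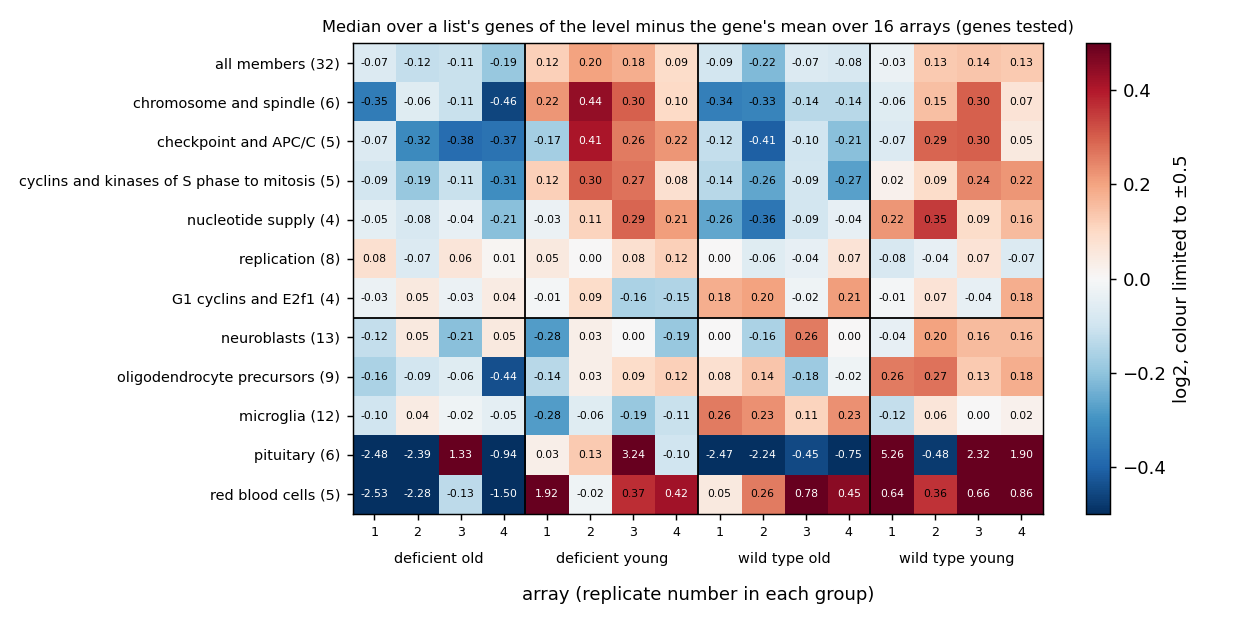
Median over the genes of a list of the log2 level minus the gene's mean over the 16 arrays, for the proliferation genes as a whole and by role (above the line) and for cell type markers (below it), with the number of genes tested in brackets. Columns are arrays by group and replicate number, with colours limited to 0.5 either way. All 32 genes together lie between -0.22 and -0.07 on the 8 old arrays and between -0.03 and 0.20 on the 8 young arrays, while the pituitary and red cell rows vary from array to array within a group.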

How the data were processed

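Total RNA of whole brains was labelled with Cy3 by the Low RNA Input QuickAmp method and hybridised to 16 arrays, per the labels' protocols. The deposited scanner files hold the processed intensity of each spot, background-subtracted by Agilent Feature Extraction 10.7.3.1, with probe positions on NCBI37/mm9, per the file headers. The deposited value table holds log2 values of the authors that rank as the raw median signal, and their scale and centring stay unknown (its column medians ran from 6.606 to 6.622). It served as an alternative only. Limma is listed, with no version, per the submitters' processing notes.

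From the intensities, levels were taken as log2 of the processed signal, less the 75th percentile of that array, after leaving out control spots and 98 to 182 outlier spots per array. Spots of a probe were averaged. A probe was kept if well above background on all arrays of a group, and a gene was read by its kept probe of highest mean, giving 33074 probes and 23032 genes. A model of the 4 group means was fitted with limma 3.58.1 in R 4.3.3 (lmFit and eBayes), with the Benjamini-Hochberg adjustment across the genes tested. It gave the genotype difference at each age and averaged, the age difference in each genotype and averaged, and the difference of the age differences. The number of arrays, 4 per group, limits the precision, and a p-value reflects only how far these brains vary, since the labels name no animals. The fit was tested on simulated data.

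The member genes and gene lists were chosen with earlier results of these data known. Genes named are the members called in a contrast, the 4 members of smallest p per contrast, 10 members given whatever they show (Mki67, Top2a, Cdk1, Ccnb1, Ccna2, Pcna, Mcm2, Ccnd1, Ccnd2, Tyms), and the called genes and up to 3 of smallest p in the other lists. Further members, markers and second probes are named for their role, after their values were seen. Alternatives were normexp background correction, quantile normalization, other filters and probe rules, the deposited table, a replicate block, the compared groups alone, and each array left out.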

Additional observations from a re-analysis of the deposited data

Results flagged for a closer look

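Of 52 groups of 4 arrays tested for an array far from the others, 4 held one, and chance alone marks about 1 group in 20. Old deficient array 1 had a Mki67 level of -3.78, above the other 3 arrays of its group at -4.03 to -4.06, and still below every young deficient array. Young wild-type array 2 had a Ccnb1 level of -4.08, above the other 3 at -4.83 to -4.77. Young wild-type array 3 had a Mcm3 level of -0.76, above the other 3 at -0.98 to -0.95. Young deficient array 1, the array that stood apart on the first principal component, had a Pcna level of 2.43, below the other 3 of its group. The age difference of Clspn differed between genotypes by 1.78 ± 0.29 (adjusted p = 0.0173, limma), deficient minus wild type, in a contrast that cannot be told apart from slide row.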

How the results depend on the processing

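No called member changed the sign of its difference under the alternatives run. In the averaged age contrast the count of 5 members called was 3 after normexp background correction (Mki67, Ccna2 and Tk1), 4 with probes above background on all 16 arrays (a filter that drops Ccnb1), 7 after quantile normalization (with Kif20a and Cdca8), 7 with no filter on dim probes (with Top2a and Bub1), 6 with the deposited table (with Cdca8), 6 without the 3 arrays farthest out on the first component (with Rrm2), and 5 to 6 with each array left out in turn. In deficient brains the age count of 6 was 3 after normexp (Mcm3, Tk1 and Mki67) and 3 in a fit of the 2 groups compared (Mki67, Tk1 and Ccnb1), and 3 to 7 with each array left out. In wild-type brains the age count of 3 was 0 after normexp, quantile normalization, no filter on dim probes, the deposited table, the 2 groups alone, and without those 3 arrays, and 0 to 3 with each array left out. The young genotype count of 1 was 0 without the filter, in the 2 groups alone and without those 3 arrays, and 0 to 1 with each array left out. The old genotype count of 1 was 0 after normexp and with probes above background on all 16 arrays (a filter that drops Clspn), 2 after quantile normalization and without the 3 arrays (Clspn and Mcm3), and 0 to 2 with each array left out. The averaged genotype count of 2 was 1 after normexp, quantile normalization or no filter (Ccnd1), 0 without the 3 arrays, and 1 to 2 with each array left out. The interaction count of 1 was 0 after normexp, without the filter, with the 16-array filter and without the 3 arrays, and 0 to 1 with each array left out. Where no construction is named, the cause was not tested. Leaving out the 3 arrays, and Gpr17 from the precursor sum, was chosen after seeing the data. Replicate numbers did not pair the samples: same-numbered arrays correlated at -0.444 to 0.274 in their deviations, 7 of 24 pairs over 0.1, and 4 of 16 arrays correlated best with their own number, which is also the slide column. With the replicate block the counts were 0 for young genotype, 1 for old genotype, 1 for the averaged genotype, 1 for age in wild-type, 5 for age in deficient and 5 for averaged age, and 1 for the interaction. Probes near background (Clspn, Ccnb1, Nusap1, Bub1b and the 6 untested genes) limit what the arrays can show.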
